A study of Mus musculus with 4 samples.

Results

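Chromatin immunoprecipitation and sequencing (ChIP-seq) against DNMT3B was done on lung metastases of the 4T1 line, and 427 of the 8242 broad islands in the deposited SICER list were paired there with a noncoding transcript. These islands were chosen by a single rule, that the transcript the list gives for an island carries a RefSeq accession beginning with NR_, the prefix of noncoding RNAs. The other 7815 islands were paired with NM_ accessions, the prefix of messenger RNAs, and the rule uses no property of the island itself. The 427 islands belonged to 272 genes and 274 transcripts. The series has 2 ChIP libraries made with an antibody against DNMT3B and 2 input libraries with no antibody, and each kind carries the lung labels 3 and 5. All 4 came from lung metastases of 4T1, a mammary tumour cell line of BALB/c mice, and no genotype change or treatment is named in the labels. Nothing in the labels says whether the libraries come from separate mice, or whether tumour cells were separated from the lung tissue around them. The list gives positions only, with no read count, score or p-value and no value for any library, so the depth is unknown and no spread between replicates can be given. The shares printed here carry exact 95% binomial intervals, which cover counting error only, and islands of the same gene are not independent.

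DNMT3B is a DNA methyltransferase that places new methyl groups on cytosines, mostly where a C is followed by a G (a CG site), and in many cell types it is found along the bodies of transcribed genes. Noncoding genes range from microRNAs, short RNAs cut from a hairpin that silence messenger RNAs through a seed near their 5′ end, to small nucleolar RNAs, which guide the chemical modification of ribosomal RNA, and long noncoding RNAs, many of which act in the nucleus. Many microRNA and small nucleolar RNA genes sit inside the introns of longer genes, and the DNA methylation of microRNA promoters has been studied in many tumours.

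RefSeq gives a mature sequence for 52 of the 53 microRNA genes among these islands. The first set shows microRNAs whose whole hairpin gene lay under an island, 5′ to 3′, with the seed (bases 2 to 8) in capitals. They are a choice among the 26, taken for their known roles or their host genes: miR-126a of endothelial cells, miR-140 of cartilage, miR-26a and miR-101b, known regulators of the histone methyltransferase EZH2, miR-29b, known to target DNMT3A and DNMT3B, miR-199a, miR-138, miR-150 of lymphocytes and miR-130b.
miR-126a-3p: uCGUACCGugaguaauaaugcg
miR-140-3p: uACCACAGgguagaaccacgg
miR-26a-5p: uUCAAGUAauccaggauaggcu
miR-101b-3p: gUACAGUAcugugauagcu
miR-29b-3p: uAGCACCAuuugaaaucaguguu
miR-199a-3p: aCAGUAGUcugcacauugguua
miR-138-5p: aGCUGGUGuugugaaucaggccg
miR-150-3p: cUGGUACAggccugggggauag
miR-130b-3p: cAGUGCAAugaugaaagggcau

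The second set shows microRNAs that share a seed with a copy elsewhere in the genome or with a neighbour, because islands were found at both copies of these clusters or over both neighbours. miR-27a, miR-24, miR-29a and miR-193b are not named in the list. Their genes neighbour a named gene in the RefSeq table.
miR-27b-3p: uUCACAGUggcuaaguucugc
miR-27a-3p: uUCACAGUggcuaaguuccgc
miR-24-3p: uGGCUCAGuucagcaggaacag
miR-29b-3p: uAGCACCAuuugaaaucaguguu
miR-29a-3p: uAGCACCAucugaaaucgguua
miR-365-3p: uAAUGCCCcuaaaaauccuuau
miR-193a-3p: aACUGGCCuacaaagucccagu
miR-193b-3p: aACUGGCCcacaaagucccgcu

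The third set shows the promoters (250 bases before to 50 after the gene start, RefSeq, GRCm38.p6) of 5 long noncoding RNA genes whose start an island covered, with each CG in capitals. They are shown because CG sites are what DNMT3B acts on, and the 5 were picked to span their range, which over the 52 such promoters runs from 0 to 43 CG: 39 CG in Rab10os (chr12:3235541-3235840, plus strand), 36 in Snhg10 (chr12:105032230-105032529, minus strand), 25 in Snhg20 (chr11:117076533-117076832, plus strand), 10 in Malat1 (chr19:5802623-5802922, minus strand) and 0 in 6030466F02Rik (chr8:123733708-123734007, plus strand).
Rab10os: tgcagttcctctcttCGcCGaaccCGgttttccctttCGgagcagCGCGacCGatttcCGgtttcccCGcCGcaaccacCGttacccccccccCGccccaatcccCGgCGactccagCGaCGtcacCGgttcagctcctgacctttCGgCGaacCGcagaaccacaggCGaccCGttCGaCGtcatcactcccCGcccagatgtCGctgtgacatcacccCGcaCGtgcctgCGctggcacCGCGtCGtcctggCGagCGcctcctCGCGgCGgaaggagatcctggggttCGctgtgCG
Snhg10: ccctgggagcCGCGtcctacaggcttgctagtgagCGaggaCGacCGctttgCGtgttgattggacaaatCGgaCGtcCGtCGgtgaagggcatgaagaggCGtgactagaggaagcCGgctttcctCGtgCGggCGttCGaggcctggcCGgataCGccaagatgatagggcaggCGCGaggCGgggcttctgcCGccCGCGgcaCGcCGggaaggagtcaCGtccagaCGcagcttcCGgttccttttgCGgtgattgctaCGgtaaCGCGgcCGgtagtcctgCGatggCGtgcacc
Snhg20: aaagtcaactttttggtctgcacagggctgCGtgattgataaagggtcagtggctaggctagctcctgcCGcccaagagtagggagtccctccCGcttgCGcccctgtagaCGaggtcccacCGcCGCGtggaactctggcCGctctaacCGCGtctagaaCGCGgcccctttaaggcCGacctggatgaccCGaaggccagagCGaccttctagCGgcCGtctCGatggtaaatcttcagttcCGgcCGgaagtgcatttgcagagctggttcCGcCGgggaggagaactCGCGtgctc
Malat1: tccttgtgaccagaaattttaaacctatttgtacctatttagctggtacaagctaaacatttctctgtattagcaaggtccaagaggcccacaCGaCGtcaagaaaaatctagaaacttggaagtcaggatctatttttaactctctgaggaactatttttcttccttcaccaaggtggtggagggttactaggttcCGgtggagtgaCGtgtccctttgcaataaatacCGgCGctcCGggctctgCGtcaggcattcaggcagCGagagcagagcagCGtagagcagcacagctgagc
6030466F02Rik: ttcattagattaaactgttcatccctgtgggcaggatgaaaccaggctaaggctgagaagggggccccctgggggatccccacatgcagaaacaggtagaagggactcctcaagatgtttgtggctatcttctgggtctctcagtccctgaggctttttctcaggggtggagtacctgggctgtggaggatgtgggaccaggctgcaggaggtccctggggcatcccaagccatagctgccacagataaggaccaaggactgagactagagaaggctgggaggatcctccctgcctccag

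By the RefSeq gene types, 253 islands (157 genes) were paired with long noncoding RNAs and 89 (53 genes) with microRNAs. A further 19 islands (14 genes) were paired with other small RNAs, 21 (16 genes) with pseudogenes and 42 (29 genes) with NR_ transcripts of genes that RefSeq types as protein-coding. The last 3 islands (3 genes) could not be matched. Of the 272 genes, 159 carry only clone or model names (Rik or Gm), 184 had a single island, 49 had 2 and 39 had 3 or more. Over all islands, 2150 of 4020 genes had a single island, 903 had 2 and 967 had 3 or more. The noncoding gene with the most was 2610035D17Rik, with 9, against a maximum of 25 over all islands.

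The NR_ islands had a median width of 5600 bp (95% interval 5000 to 6000 bp) and quartiles of 3200 and 8500 bp, next to a median of 4800 bp and quartiles of 3000 and 7600 bp over all islands. Together they covered 2.81 Mb of the 50.0 Mb in all islands. Medians were 5800 bp for both long noncoding RNAs and microRNAs, 5000 bp for other small RNAs and for genes typed as protein-coding, and 3800 bp for pseudogenes. The plot of widths shows overlapping classes whose upper ends differ, from 12200 bp for other small RNAs and 15600 bp for pseudogenes to 31400 bp for microRNAs and 87600 bp for long noncoding RNAs. The narrowest NR_ islands were 400 bp.

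**Figure D1:**
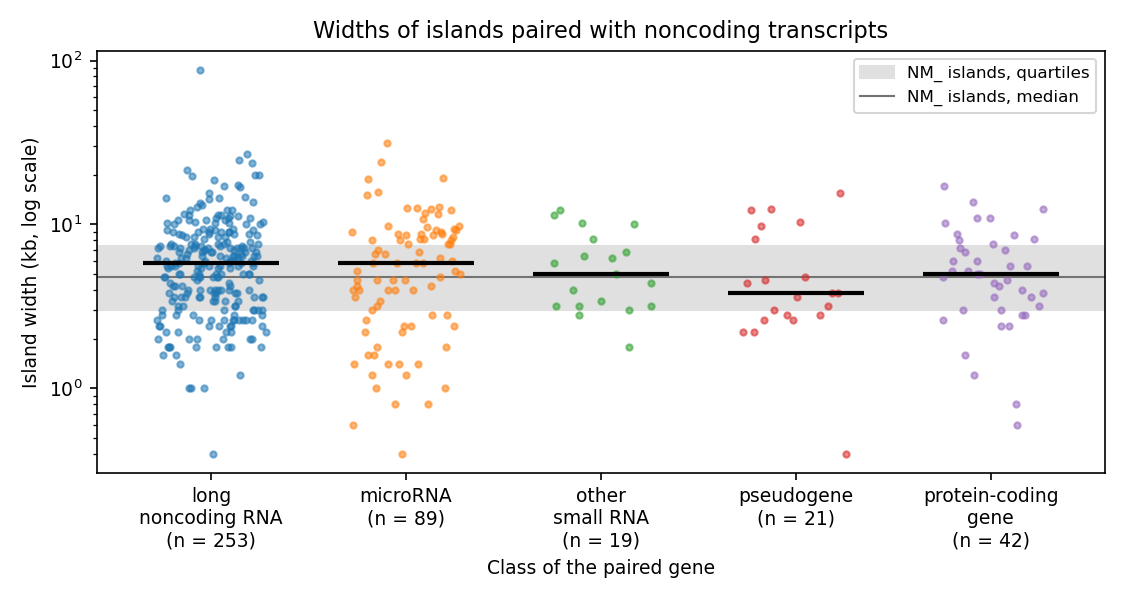
Width of each island paired with a noncoding transcript (points, kb, log scale) by class of the paired gene, with the class median as a black bar; the grey band and line are the quartiles and median of the NM_ islands. Medians run from 3800 bp for pseudogenes to 5800 bp for long noncoding RNAs and microRNAs, and the widest point is the 87.6 kb island in Pvt1.

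The NR_ islands lay outside their transcript in a larger share of cases than islands in general. An island overlapped the transcript body by at least 1 bp in 208 of 427 cases (48.7%, interval 43.9 to 53.6%), against 72.0% of all islands. It covered the transcript start in 106 (24.8%, interval 20.8 to 29.2%), against 15.4%, and the end in 83 (19.4%), against 12.8%. Only 74 islands (17.3%) lay wholly inside the transcript, against 46.9%, whereas 101 (23.7%) lay wholly upstream, against 12.3%, and 118 (27.6%) wholly downstream, against 15.7%. An island spanned the whole transcript in 55 cases (12.9%), against 261 (3.17%) of all islands. No test of these differences was made.

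**Figure D2:**
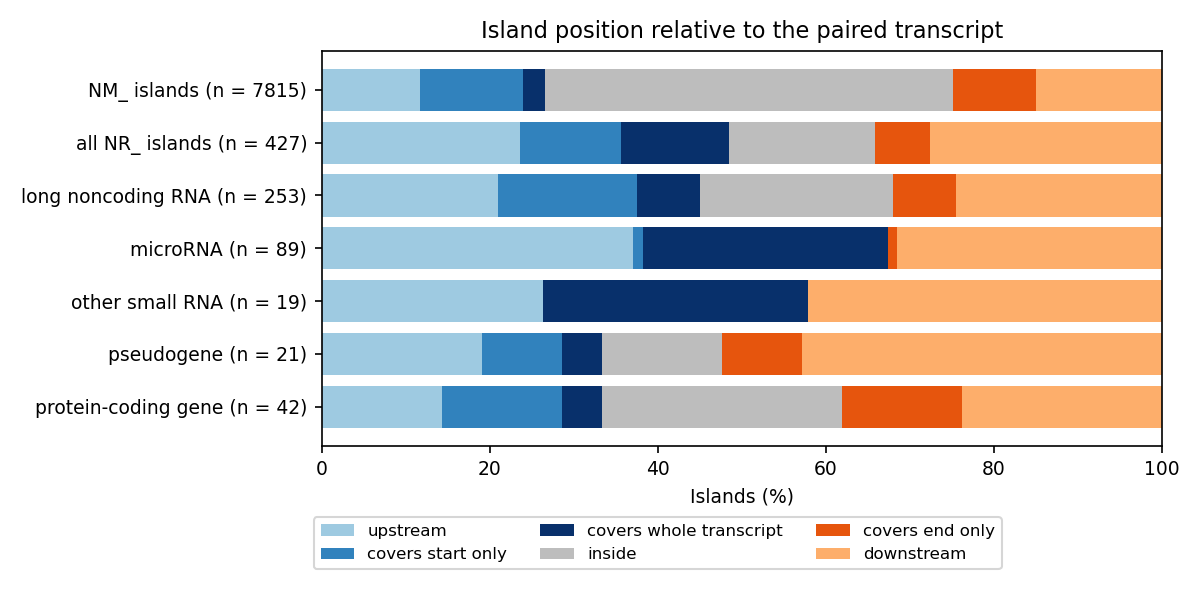
Share of islands (percent) by where the island lies relative to its paired transcript, for NM_ islands, all NR_ islands and the 5 matched NR_ classes, with the number of islands in each. Islands inside the transcript make up 48.5% of the NM_ bar and 17.3% of the NR_ bar, and none of the microRNA bar.

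The transcripts themselves differed in length, with a median of 5033 bp for NR_ islands and 29593 bp for NM_ islands. Within classes of transcript length, the share of islands over the body was 33.0% for NR_ and 38.5% for NM_ under 1 kb, 36.1 and 44.2% from 1 to 5 kb, and 52.1 and 58.2% from 5 to 20 kb. It was 72.0 and 81.4% from 20 to 100 kb, and 93.8 and 93.5% over 100 kb, where only 16 NR_ islands fell. In every length class the intervals of both kinds overlap, from 20 to 100 kb only narrowly (60.9 to 81.3% and 80.1 to 82.7%). The NR_ share was the lower in each class under 100 kb. Weighted to the NR_ transcript lengths, a comparison added after the data were seen, the NM_ shares were 55.5% over the body, 26.3% over the start, 20.8% upstream, 23.7% downstream and 21.3% inside. The weighted share over the body lies above the NR_ interval of 43.9 to 53.6%. Those over the start, upstream and downstream lie within the NR_ intervals, and that inside lies at the upper end of its interval (13.9 to 21.3%).

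**Figure D3:**
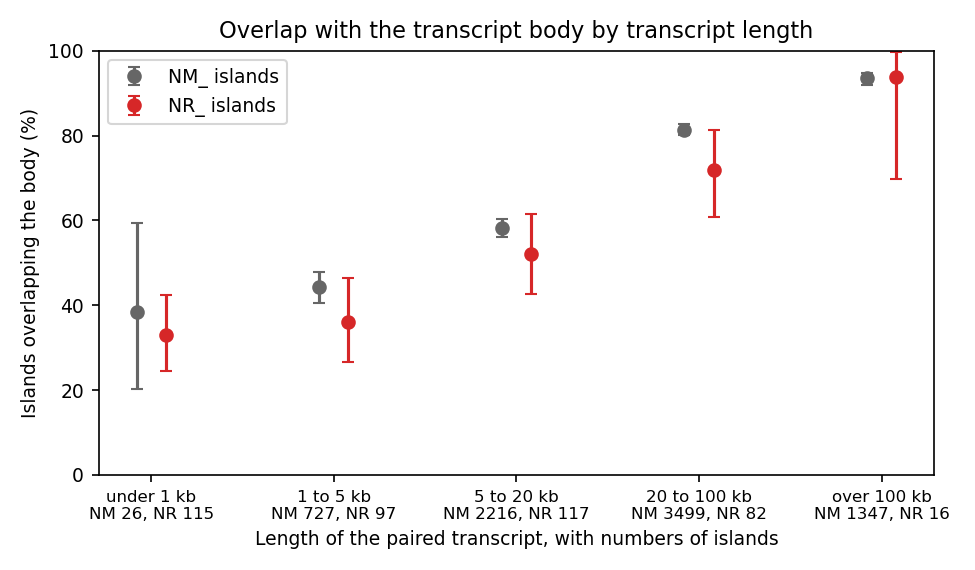
Share of islands that overlap the transcript body (percent, with exact 95% binomial intervals) by length of the paired transcript, for NM_ islands (grey) and NR_ islands (red), with the number of islands under each class. Both shares climb from below 40% under 1 kb to above 93% over 100 kb.

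The microRNA genes are far shorter than an island, so an island over one nearly always covers all of it. Of the 53 microRNA genes, 28 lay under an island, 26 of them over the whole hairpin gene, while at Mir149 the island reached the start only and at Mir671 the end only. The map of islands around the microRNA genes shows the remaining 25 genes with islands only to one side or both. By islands, 28 of 89 (31.5%) overlapped the gene, 33 lay upstream and 28 downstream. By RefSeq, 38 of the 53 genes (71.7%, interval 57.7 to 83.2%) lie inside a coding gene, against 67.2% of all 1228 microRNA genes with an NR_ transcript, and for these an island over the microRNA is also an island in the host. Hairpins under an island held a median of 2 CG and 76.9% of the 26 had at least 1, against a median of 1.5 and 86.4% over 22 other member hairpins, and a median of 1 and 66.5% over all 1005 hairpins of the table.

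**Figure D4:**
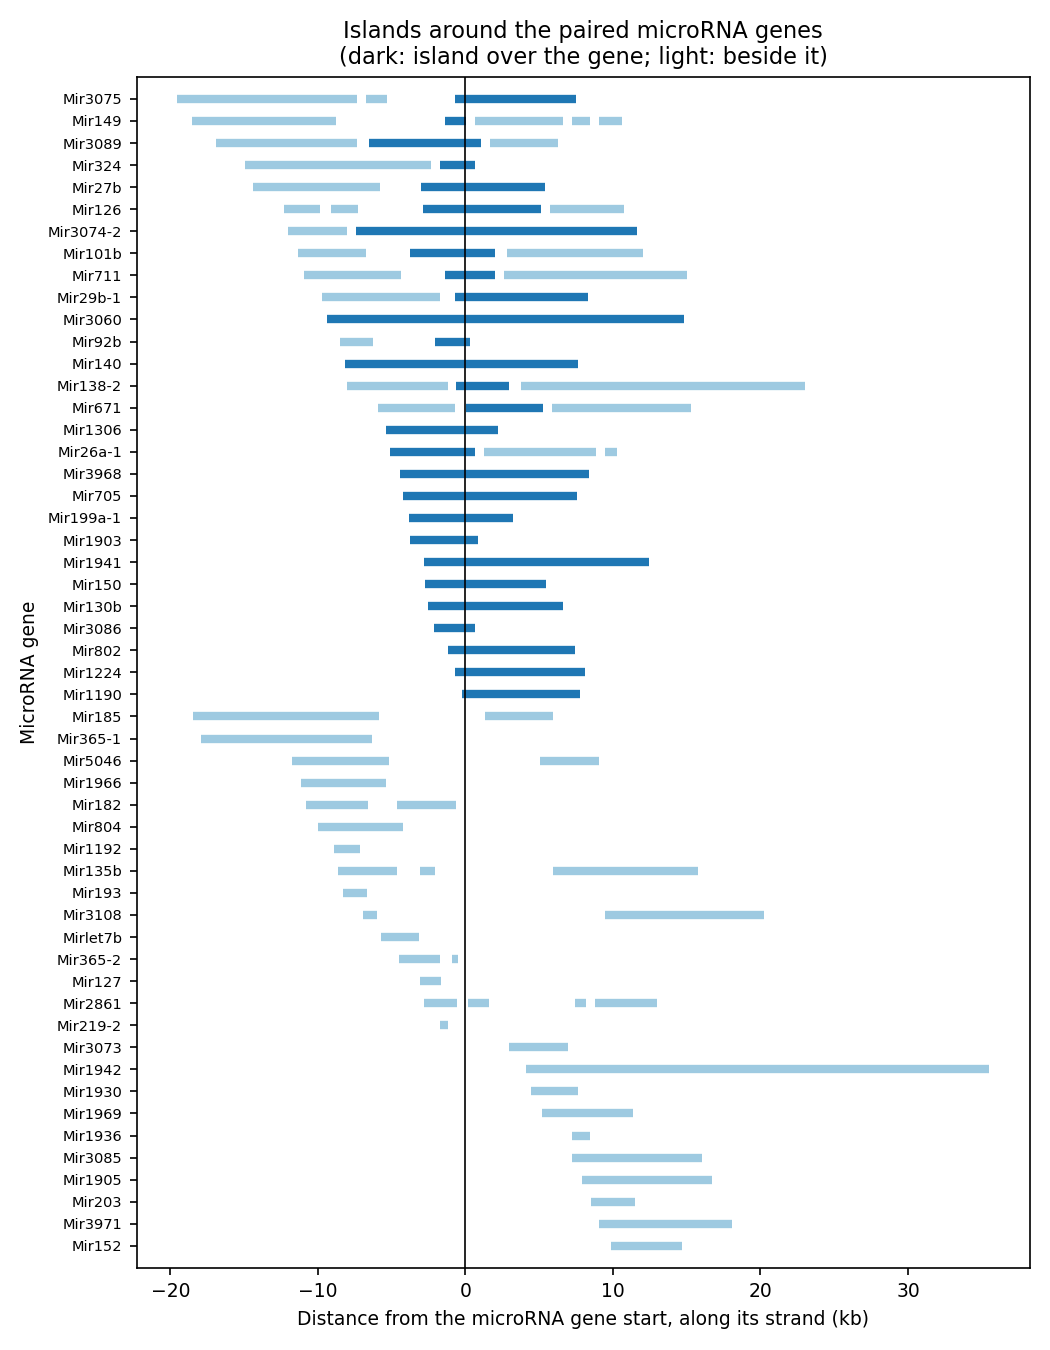
Islands around each paired microRNA gene (bars; distance in kb from the gene's start along its strand), dark where the island lies over the gene and light where it lies beside it. The 28 genes with a dark bar stand above the 25 with islands beside them only, and the longest bar is the 31.4 kb island downstream of Mir1942.

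Several of the covered microRNAs sit in a host gene named in the list or in the table. Mir126 (now Mir126a), in an intron of the endothelial growth factor gene Egfl7, had 4 islands, at chr2:26434600-26436999, chr2:26437800-26439599, chr2:26444000-26451999 and chr2:26452600-26457599 (positions as deposited, here and throughout), and the third covers the hairpin with 2876 bp to spare before it. Mir140, in Wwp2, lay under a 15800 bp island (chr8:110067000-110082799). Mir199a-1, in the dynamin gene Dnm2, lay under a 7000 bp island, Mir26a-1, in Ctdspl, under a 5800 bp island with 2 more downstream, and Mir138-2, in the nuclear pore gene Nup93, under a 3600 bp island with a 19200 bp island 3719 bp downstream. Mir711, in the collagen VII gene Col7a1, lay under a 3400 bp island between 2 wider ones of 6600 and 12400 bp. Mir101b, in Rcl1, was flanked in the same way. Mir1306, in Dgcr8, whose protein cuts microRNA hairpins free together with Drosha, lay under a 7600 bp island. Mir3060, in Rnf215, lay under the widest island that covers a microRNA, 24200 bp at chr11:4030000-4054199. Other covered hairpins were Mir27b, Mir29b-1, Mir92b, Mir130b, Mir150, Mir324, Mir705, Mir802, Mir1190, Mir1224, Mir1903, Mir1941, Mir3074-2, Mir3075, Mir3086, Mir3089 and Mir3968.

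By the spacing of the RefSeq table, both copies of the miR-23/27/24 cluster lay under an island. Mir3074-2, which overlaps Mir24-2 in the RefSeq table, had a 19000 bp island reaching at least 7393 bp past it on each side, and the table places Mir27a 67 bp and Mir23a 233 bp from it. The island over Mir27b was 8400 bp wide and reached at least 3019 bp past it, with Mir23b at 155 bp and Mir24-1 at 424 bp in the table. miR-27a-3p and miR-27b-3p share the seed UCACAGU, as the sequences above show. The island over Mir29b-1 was 9000 bp wide and reached 706 bp past it on the shorter side. Mir29a, with the same 3p seed (AGCACCA), is 276 bp away in the table, within that reach. Mir130b, with a 9200 bp island, has Mir301b 258 bp away.

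The paired miR-193 and miR-365 clusters on chromosomes 11 and 16 showed islands upstream only. On chromosome 11, Mir193 (now Mir193a) had a 1600 bp island 6671 bp upstream, and Mir365-2 had islands of 2800 and 400 bp lying 1702 and 502 bp upstream. Its counterpart on chromosome 16, Mir365-1, had an 11600 bp island 6333 bp upstream (chr16:13436000-13447599), which also holds a MACS region; the MACS list gives Mir193b as its nearest gene, 12215 bp away. The table gives mature sequences for 52 of the 53 genes, and not always both forms. Among these sequences, Mir365-1 and Mir365-2 are the only 2 genes that share a seed (AAUGCCC for the 3p form, GGGACUU for the 5p form).

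Among 51 microRNAs with a known role in epithelial state or metastasis that the table holds, 6 had an island (11.8%), while 53 of all 1228 microRNA genes with an NR_ transcript did (4.32%). Of these 6, Mir126 and Mir29b-1 lay under an island. Mir152, known to target DNMT1, had a 4800 bp island 9821 bp downstream, Mir203, a microRNA of the skin that restrains proliferation, had a 3000 bp island 8434 bp downstream, Mirlet7b, a let-7 member, had a 2600 bp island 3149 bp upstream, and Mir193a is described above. Mir182, a neighbour of Mir183 and Mir96 in a cluster known from sensory cells, had 2 islands 608 and 6608 bp upstream. Mir127, one of the imprinted microRNAs around Rtl1, had a 1400 bp island 1656 bp upstream. The other genes with islands beside them only were Mir135b, Mir185, Mir219-2, Mir804, Mir1192, Mir1905, Mir1930, Mir1936, Mir1942, Mir1966, Mir1969, Mir2861, Mir3073, Mir3085, Mir3108, Mir3971 and Mir5046. The list was chosen with earlier results of these data known, and no test was made of it.

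Of the 14 other small RNA genes, 6 lay wholly under an island and 8 had islands beside them only. Snord37, in the elongation factor gene Eef2, lay under a 12200 bp island, and Snora7a, in the ribosomal protein gene Rpl32, lay under an 11400 bp island that also holds a MACS region. Snord96a, in the ribosomal scaffold gene Rack1, Snord12, Snord49b and Snord1c were covered by islands of 6200, 8200, 6800 and 10000 bp. Snord66, in Eif4g1, had 4 islands within 10 kb and none over it, and 1 of them, 7814 bp downstream, holds a MACS region. Snora75, in the nucleolin gene Ncl, had a single 3200 bp island 7340 bp upstream that holds 3 MACS regions, 2 of which the MACS list places in introns of Ncl. Rnu12, the U12 RNA of the minor spliceosome, and Scarna6 had islands 5976 and 4407 bp downstream. Snora5c, Snora68, Snord42a and Rn4.5s also had islands beside them. By RefSeq, 8 of the 11 small nucleolar RNA genes (72.7%) lie inside a coding gene, against 68.3% of 126. Small RNA genes of this kind often exist in several copies, so pairing with one copy is uncertain.

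Coverage of the long noncoding transcripts was uneven. Of the 253 islands at long noncoding RNAs, 138 (54.5%) overlapped the body, 61 (24.1%) covered the start and 58 lay inside. Of the 15 such genes over 50 kb, islands covered over 40% of the body in 3, under 3% in 4 and none in 3, with a median of 12.1%. Among the best covered, 2610035D17Rik, a 157.9 kb transcript, carried 9 islands summing to 67.0 kb, and 42.2% of its body lay in islands, none of them at its start. Pvt1, the long noncoding RNA next to Myc whose region is amplified in many tumours, had 4 islands summing to 112.2 kb (52.7% of 213.0 kb). Its last island, chr15:61918400-62005999, was the widest of the 427, at 87600 bp, and ran from 48859 to 136458 bp past the start. Gm14005, now Morrbid, an RNA that acts on the apoptosis gene Bcl2l11 in myeloid cells, had 5 islands, 1 over the start (11400 bp) and 3 of 5 touching the body. A830060N17 had 5 islands (65.3% of its 49.4 kb body), Gm10863 had 4 (58.9% of 50.3 kb) and 1600002D24Rik had 6, 5 of them over the 98.0 kb that its 2 listed transcripts span (21.4%). Gm19782, at 154.0 kb, had a single island over 1.56% of its body.

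Gm10432 had 6 islands, 1 of 10400 bp over its start. D030025P21Rik, 1810013A23Rik, Gm10941 and Gm11981 each had 4, and the first 3 were each wholly covered by 1 of them. The other widest islands were 27000 bp beside Gm12359, 24600 bp in 2610035D17Rik, 23600 bp over 2810008D09Rik (now Snhg20), 21400 bp over Gm15350, which lies in Atp11a, and 20000 bp each over 2010320M18Rik and over the start of Malat1. The 31400 bp island that lies 4041 bp downstream of Mir1942 (chr15:76010600-76041999), a gene inside the cytoskeletal linker gene Plec, holds 2 MACS regions, and the MACS list names Plec at both.

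The fixed gene lists hold long noncoding RNAs with known roles. Of 29 long noncoding RNAs studied in cancer, 5 had an island (17.2%), against 4.70% of all 3319 long noncoding RNA genes with an NR_ transcript. Of 24 genes listed as small RNA hosts 4 did (16.7%), 1 of them Rnu12, which is itself a small RNA and is also in the spliceosomal list. Of 20 genes listed as microRNA hosts 3 did (15.0%), namely 2210403K04Rik, 5830416P10Rik and Pvt1. Of 19 imprinted or X-inactivation RNAs 2 did (10.5%), of 17 RNase, telomerase and spliceosomal RNAs 2 (11.8%) and of 19 Hox cluster RNAs none. The list counts take every listed gene found in RefSeq, with or without an NR_ transcript, and gene length was not matched. Pvt1 counts in both the cancer and the microRNA host list. The lists were chosen with earlier results of these data known, and no test was made of them. Malat1, an abundant nuclear RNA much studied in metastasis, had a 20000 bp island at chr19:5799800-5819799 over its start, ending 2871 bp into the gene, and a MACS region 618 bp upstream. Neat1, the scaffold of nuclear paraspeckles, had a 10200 bp island 9902 bp past the end of its 3.18 kb listed transcript. In the RefSeq table the gene extends 17.6 kb farther, to a length of 20.8 kb, so the island (9.90 to 20.1 kb past the listed end) lies partly within the RefSeq gene. Fendrr (listed as 1110050K14Rik), needed for development of the heart and body wall, had a 5000 bp island inside its 28.2 kb transcript. Miat had an island 4032 bp upstream.

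Among host genes, Snhg10 had 3 islands, 1 of 2200 bp over its start, whose promoter is shown above. Snhg20 lay wholly under its 23600 bp island, Snhg7 had a 4800 bp island 696 bp downstream, and 2210403K04Rik (now Mir22hg), the host of miR-22, had a 5600 bp island 5441 bp upstream. 5830416P10Rik (now Mirt1) had 2 islands of 9400 and 8400 bp. The microRNA host list holds it, but its name does not mark it as a host, and this was not checked. The same list lacks 2610100L16Rik (now Mir124-2hg), a host gene by its name. That gene had a 2600 bp island outside its body. Of the imprinted RNAs, Peg13, expressed from the paternal copy within Trappc9, lay wholly under an 18800 bp island (chr15:72623000-72641799) with a second of 8800 bp 1846 bp upstream. Airn, whose transcription silences Igf2r on the paternal copy, had a 2800 bp island 2977 bp downstream of its 74.2 kb listed transcript. RefSeq gives Airn a length of 118.6 kb, so whether this island lies within the RefSeq gene was not settled.

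The CG content of promoters was counted in the 300-base window, which reads the same on both strands for this dinucleotide. Of 52 long noncoding RNA genes with a covered start and a promoter in the table, 51 (98.1%) held at least 1 CG and the median was 9, and 48.1% held 10 or more. The 77 genes with islands elsewhere had a median of 8, with 98.7% holding a CG and 42.9% holding 10 or more. Over all 9533 long noncoding RNA promoters the median was 4, with 93.2% holding a CG and 19.7% holding 10 or more. This set is wider than the 3319 long noncoding RNA genes with an NR_ transcript, to which the members belong. No count limited to NR_ genes was made, so the members and this set are not alike. Over all 27025 promoters the median was 7, with 94.2% and 44.0%.

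Genes named as opposite strand or antisense to a coding gene numbered 13. An island covered the start of 6 of them (46.2%, against 38.9% of the 157 long noncoding RNA genes), Rab10os, Hk1os, Atcayos, Rab11fip4os2, Stk35os1 and Tnk2os. Rab10os, opposite the trafficking gene Rab10, had a 3400 bp island over its start (chr12:3234200-3237599) holding a MACS region. Rptoros, opposite the mTOR partner gene Rptor, had 2 islands outside its body, and Rptor itself had 13 islands in the list, the most of any partner. Among the other partners, Hk1 had 3, Atcay 2, and Tnk2 and Rab11fip4 1 each. Rab10, Stk35, Srrm4, Dlx1, Tomm6, Ppif and Tbc1d22b had none. ChIP-seq carries no strand, so an island that lies over both genes of a pair cannot be assigned to either. Whether each island also lies over the partner gene was not counted.

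Pseudogenes and genes typed as protein-coding were paired with fewer islands. An island overlapped the body in 8 of 21 pseudogene cases (38.1%) and in 26 of 42 cases of genes typed as protein-coding (61.9%), and covered the start in 3 and 8. Ranbp3, a nuclear export gene, had 4 islands (50.8% of its 38.5 kb body). Kat5, the TIP60 histone acetyltransferase gene, lay wholly under a 13800 bp island that holds 2 MACS regions, which the MACS list names at Kat5 and at Rnaseh2c. Cdk3-ps lay wholly under a 12400 bp island that also holds 2, and the MACS list places both in Evpl. Rn45s, the ribosomal RNA precursor, whose gene is present in many copies, also had an island, so its place is uncertain.

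The MACS list, made for narrow enrichment, touched 23 of the 427 islands (5.39%, interval 3.44 to 7.97%), against 4.82% of all islands. These islands held 32 MACS regions and were paired with 11 long noncoding RNA genes, 4 microRNA genes, 3 other small RNA genes, 2 pseudogenes and 2 coding genes. For most of the 32, the MACS list names a nearest gene other than the paired one. Examples are Cldn3 at Wbscr25, Cdk9 at Mir2861, Dapk3 at Atcayos and Mark3 at 2810029C07Rik. The paired gene is named for all 3 regions at Gm10789 and at some other genes, such as Malat1 and Rab10os. Gm10789 held 3 regions in its 6400 bp island, and D330050I16Rik held 2 in 17000 bp. AA543186 held 3 over 2 islands, and single regions lay in islands at Mir2861, Mir3060, Dlx1as, Wbscr25, Atcayos (listed as 2310050B05Rik), 4732490B19Rik, Sec14l1, 2810029C07Rik, 4933433H22Rik and 6330549D23Rik. The share moved with a property of the positions: 50 of the 421 islands whose positions could be compared (11.9%) belong to genes placed within 1 kb of GRCm38, and 7 of these 50 (14.0%) held a MACS region, against 16 of the other 371 (4.31%). Over all islands the same split was 18.4% of 684 against 3.59% of 7551. This split was chosen after the data were seen, and its part in the result was not tested. The member genes placed within 1 kb lie only on chromosomes 8, 12, 16, 17 and 19. Equality of positions cannot be told apart from chromosome here. The MACS list also names a member as nearest gene for 26 regions at 20 genes, 4 of them in Fendrr, and none of those 4 lies in the Fendrr island.

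Chromosomes 11 and 2 held the most of these islands, 71 (16.6%) and 51 (11.9%), against 14.5% and 10.2% of all islands. Over the whole list, 427 of 8242 islands were noncoding pairings. As a share of each chromosome's islands, noncoding pairings were lowest on chromosomes 4 (2 of 209, 0.957%, interval 0.116 to 3.41%) and 7 (4 of 274, 1.46%, interval 0.399 to 3.70%). Among chromosomes with over 100 islands they were highest on chromosomes 12 (35 of 317, 11.0%, interval 7.81 to 15.0%) and 16 (42 of 398, 10.6%, interval 7.71 to 14.0%). Among 155 pairs of neighbouring islands of the same gene the median gap was 1600 bp, the smallest 600 bp, and 75 pairs lay within 1000 bp. Gaps were not computed over all islands. The list holds only islands within 10 kb of the paired transcript, which by itself limits how far apart islands of a short gene can lie.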

How the data were processed

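DNMT3B ChIP and input libraries (2 of each, 4 in all) were compared by the authors, who deposited 2 lists of positions for the whole series: base positions and distances in bp, of no other unit. The submitters' processing notes name Bowtie2 (2.10), MACS (1.4), SICER and the build mm10. How libraries were pooled for calling, and which selection made the SICER list, are not given in the sources used here. SICER islands start on multiples of 200 bp, and in each of the 427 the deposited overlap length equals the overlap with the transcript extended by 10 kb on each side. MACS positions are rounded to a few significant digits; the 4304 lines hold 1705 distinct regions, each used once.

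Members were found by accession prefix and matched to the RefSeq table of GRCm38 by accession (407 islands), symbol (9) or synonym (8), with 3 unmatched. Gene positions in the list differ from GRCm38 by a median of 169.6 kb over the 421 islands compared, so the build of the printed positions is not known. They are printed as deposited and none was converted. The RefSeq table gave names, gene types, lengths and neighbours, and its sequence tables the mature microRNAs, hairpins and promoters, printed with their own GRCm38.p6 positions. Of 267 genes compared, 234 had the same length in both within 10 bp.

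Islands were classed by their position relative to the transcript and its strand. Sharing needed 1 bp. Analyses used Python 3.11.15, pandas 2.3.3, numpy 2.4.6, scipy 1.17.1 and matplotlib 3.10.9. The classing was tested on made-up placements with known answers, and the overlap counts on random intervals. Named genes were the 12 with most islands, the 8 widest islands, members of the fixed lists, all small RNAs and islands holding MACS regions. Members, lists and rules were chosen with earlier results of these data known.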

Additional observations from a re-analysis of the deposited data

How the results depend on the processing

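Of 17 alternative settings, 4 moved a share or median beyond its counting interval. Requiring the island's midpoint in the body lowered the share over the body to 27.6% (60.9% over all islands). Keeping the widest island of each gene raised the share over the start to 29.8% (22.1% over all) and the median width to 6400 bp (6000 bp over all). Keeping only genes whose positions equal GRCm38, a choice made after the data were seen, gave a MACS share of 14.0% (18.4% over all). The cause was not tested. Leaving out chromosome 11 (start share and median width), genes typed as protein-coding (all 3 shares and the width) or islands under 2000 bp (MACS share) moved none of these beyond its interval. Without genes typed as protein-coding, 385 of the 427 islands remained. No paired analysis was possible because neither list holds per-library values, and leaving out a library was not possible either. With no read counts, the depth behind any island is unknown, and a gene without an island cannot be called free of DNMT3B.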
